A study of Mus musculus with 24 samples.

Results

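The RNA of mouse 32D cells of the line labelled Nat10+/- KO1 was compared between 9 h and 3 h of actinomycin D, across all genes with enough counts to be tested. The libraries were chosen by their titles alone, as the 2 KO1 libraries of 9 h and the 2 KO1 libraries of 3 h, which are 4 of the 24 libraries of the series. The 2 KO1 libraries of 6 h lie between them in time and are shown beside them. The same interval was measured in KO2, also labelled Nat10+/-, and in wild type (WT), with 2 libraries at each time. All groups were 32D cells kept in medium with 10% serum and with IL-3 (10 ng/ml), and all were exposed to actinomycin D at 0.05 µg/ml for the stated time. Polyadenylated RNA was sequenced with ERCC spike-in RNA added to the total RNA. The labels describe the 2 libraries of a group as biological replicates without saying that cultures were grown and treated apart, so a p-value here weighs a difference against the scatter of such library pairs, part of which may be technical. They also do not say how the KO1 line was made or whether it is a single clone.

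Actinomycin D binds DNA and blocks RNA polymerases, and at low doses it acts mainly on RNA polymerase I, which transcribes the ribosomal RNA genes. When transcription stops, the level of an mRNA falls at the rate at which it is degraded, and sequencing reads this as a share of all remaining RNA, so stable transcripts gain share while unstable ones lose it. Where some genes are still transcribed, their RNA can also accumulate. Nat10 is the acetyltransferase that writes N4-acetylcytidine on ribosomal RNA, on some transfer RNAs with the help of Thumpd1, and, as reported, on mRNA. 32D is a line from mouse bone marrow that depends on IL-3 and behaves as an early myeloid cell.

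Depth was even, between 15670514 and 17175115 gene counts in the KO1 libraries of 3, 6 and 9 h. Nat10 itself was measured in every library. It stood at 47.5 and 50.1 CPM (counts scaled to a common library size by edgeR's TMM factors and given as counts per 1e6) in KO1 at 9 h, against 83.7 and 85.2 CPM in KO1 at 3 h. In KO2 it stood at 47.1 and 47.4 CPM at 9 h, against 82.9 and 83.6 CPM at 3 h. In WT it stood at 62.2 and 65.9 CPM at 9 h, against 87.2 and 88.9 CPM at 3 h. At 3 h the KO1 libraries thus lay just below the WT libraries, and mRNA counts alone do not show the state of the allele. The labels give the cell type as bone marrow lymphoblastocytes. Of the marker genes, the myeloid ones Ptprc, Spi1, Csf2rb, Il3ra and Myb stood between 55.0 and 257 CPM of gene totals at 3 h, whereas Kit had 0 counts in all 4 libraries. Of the same 14 myeloid progenitor markers, Mpo stood at 1.95 and 2.68 CPM of totals at 3 h, and Cd34, Elane and Cd33 stayed under 1 CPM there. The T and B cell genes Cd3g, Cd4, Cd8a, Ms4a1, Dntt and Il7r had 0 counts in all 4 libraries. Other lymphoid genes were present, with the highest level in Cd79a, a part of the B cell receptor, at 13.9 and 13.9 CPM of totals at 9 h, against 15.6 and 13.9 at 3 h. The summed level of the 16 lymphoid markers was 36.4 and 37.0 CPM of totals at 9 h, against 29.6 and 29.3 at 3 h, and that of the 10 stromal markers was 6.45 and 5.45 at 9 h, against 3.05 and 3.84 at 3 h.

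Both KO1 libraries of 3 h stood apart from the other KO1 libraries in reads like ribosomal RNA. A locus on chromosome 17 that resembles 18S rRNA, at 40157244 to 40159092 on GRCm39, took 1517 and 1536 CPM of gene totals in KO1 at 9 h, against 6797 and 6788 CPM at 3 h, while the 6 h libraries had 1075 and 1067 CPM and the 0 h libraries 1413 and 1418 CPM. In KO2 it took 3665 and 3598 CPM at 9 h, against 1503 and 1464 CPM at 3 h, and in WT 3640.3 and 3667 CPM at 9 h, against 1325 and 1299 CPM at 3 h. At 0 h it took 10787 and 10570 CPM in KO2, above KO1 at 3 h, and 2834 and 2789 CPM in WT. A high level of the locus was thus not particular to the KO1 libraries of 3 h. In KO1 Lars2, the mitochondrial leucyl-tRNA synthetase, moved with the locus, at 126 and 126 CPM of totals at 9 h, against 339.7 and 349 CPM at 3 h. In KO2 at 0 h Lars2 stood at 367 and 365 CPM of totals. The locus and Lars2 were picked out after their values were seen. The part of this difference in the other results was not tested gene by gene, but the counts of called genes are given below also without these loci and the mitochondrial genes. Spike-in RNA made up 260.0 and 263 CPM at 3 h, 353 and 342 CPM at 6 h, and 258 and 257 CPM at 9 h.

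Most of the transcriptome moved between 3 h and 9 h in KO1. Of 16167 genes tested, 10534 (65.2%) passed an adjusted p under 0.05 in edgeR's quasi-likelihood test, 5196 of them (32.1%) higher at 9 h and 5338 (33.0%) lower. At least 2-fold higher were 1991 genes (12.3%), and at least 2-fold lower were 1793 (11.1%). The median absolute log2 difference over all genes was 0.58. Between the 2 libraries of a group the median absolute difference was 0.06 at 9 h and likewise at 3 h. That value covers only the 10254 genes that averaged 5 CPM or more over all libraries. It leaves out the genes of low counts, so the 2 medians are not of the same genes. Bulk RNA cannot tell fewer cells with a transcript from less of it per cell. The values are also relative to the scale of the libraries. With gene totals in place of TMM, the median over all genes was 0.24 in place of 0.02 and 63.5% of called genes were higher, against 49.3% with TMM. With spike-in totals the median was 0.26 and 64.6% were higher. A small negative value can therefore turn positive on those scales. Without the 18S-like locus, Lars2 and the mitochondrial genes, 10510 genes were called, with 46.6% of them higher.

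Changes were called both before and after 6 h. Between 3 h and 6 h 8762 genes (54.2%) were called, 4119 (25.5%) higher and 4643 (28.7%) lower at 6 h, and between 6 h and 9 h 6422 genes (39.7%) were called, 3208 (19.8%) higher and 3214 (19.9%) lower at 9 h. The 6 h libraries enter both steps, so the steps are not independent. Spike-in totals moved the share of calls that were higher from 47.0% to 20.7% for the step to 6 h, and from 50% to 96.1% for the step to 9 h, since spike-in RNA took a larger share at 6 h. Gene totals gave 58.1% and 68.2%. Of the 1991 genes that rose at least 2-fold, 1423 (71.5%) had both 6 h libraries above both 3 h libraries and below both 9 h libraries. Of the 1793 that fell at least 2-fold, 1405 (78.4%) had both 6 h libraries between. These genes were picked by their difference between 9 h and 3 h. Those libraries did not overlap in 1984 of the rises and 1792 of the falls, so a 6 h value in the middle lies between by selection. The share over all genes was not counted. The median fall was -0.92 on the log2 scale by 6 h and a further -0.54 by 9 h, and the median rise was 1.07 by 6 h and 0.59 after it.

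The 8 largest falls at a mean of 5 CPM or more were Arhgap15, Fto, Inpp4b, Diaph3, Atrnl1, Dock2, Gphn and Supt3. Their spans on the genome ran from 342 kb for Supt3 to 785 kb for Inpp4b. Fto, the demethylase that removes N6-methyladenosine from RNA, lies on chromosome 8 from 92040153 to 92395067 on GRCm39, a span of 355 kb. It had 2.80 and 3.79 CPM at 9 h, against 64.04 and 64.4 CPM at 3 h, with 17.7 and 18.9 CPM at 6 h. The fall was 19.4-fold (log2 difference -4.28 ± 0.106 (SE), adjusted p = 1.57e-61, edgeR). Over the 3 h before the window it had changed by -0.46 on the log2 scale. Arhgap15, a GTPase-activating protein for Rac, spans 647 kb on chromosome 2. It had 2.04 and 2.60 CPM at 9 h, against 46.8 and 50.4 CPM at 3 h, and showed the largest fall of the 8 at 20.9-fold (log2 difference -4.38 ± 0.123 (SE), adjusted p = 1.31e-56, edgeR).

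Inpp4b, a phosphoinositide phosphatase with a span of 785 kb on chromosome 8, fell 17.3-fold, with 3.44 and 3.06 CPM at 9 h, against 56.98 and 55.5 CPM at 3 h. Unlike Fto it had lost much of its level already, with 217 and 218 CPM at 0 h. Dock2, the guanine nucleotide exchange factor for Rac in blood cells, was the most abundant of the 8 at 0 h, 3 h and 9 h. It had 14.7 and 13.4 CPM at 9 h, against 189 and 195 CPM at 3 h, a fall of 13.7-fold with a standard error of 0.055 on the log2 scale. Diaph3, a formin that builds actin filaments, had 1.86 and 2.60 CPM at 9 h, against 37.9 and 38.6 CPM at 3 h. Atrnl1 had 2.04 and 1.64 CPM at 9 h, against 25.9 and 27.8 CPM at 3 h. In both genes the 9 h libraries lay far below the 3 h libraries and the 6 h libraries lay between. Gphn, gephyrin, which anchors inhibitory receptors in neurons and makes molybdenum cofactor in other cells, had 3.85 and 4.19 CPM at 9 h, against 50.1 and 57.1 CPM at 3 h. Most of its fall came by 6 h, when it stood at 6.43 and 5.28 CPM. Supt3, a subunit of the SAGA coactivator, had 1.51 and 0.736 CPM at 9 h, against 15.9 and 13.5 CPM at 3 h, and was the least abundant of the 8 at 0 h, 3 h and 9 h.

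**Figure D1:**
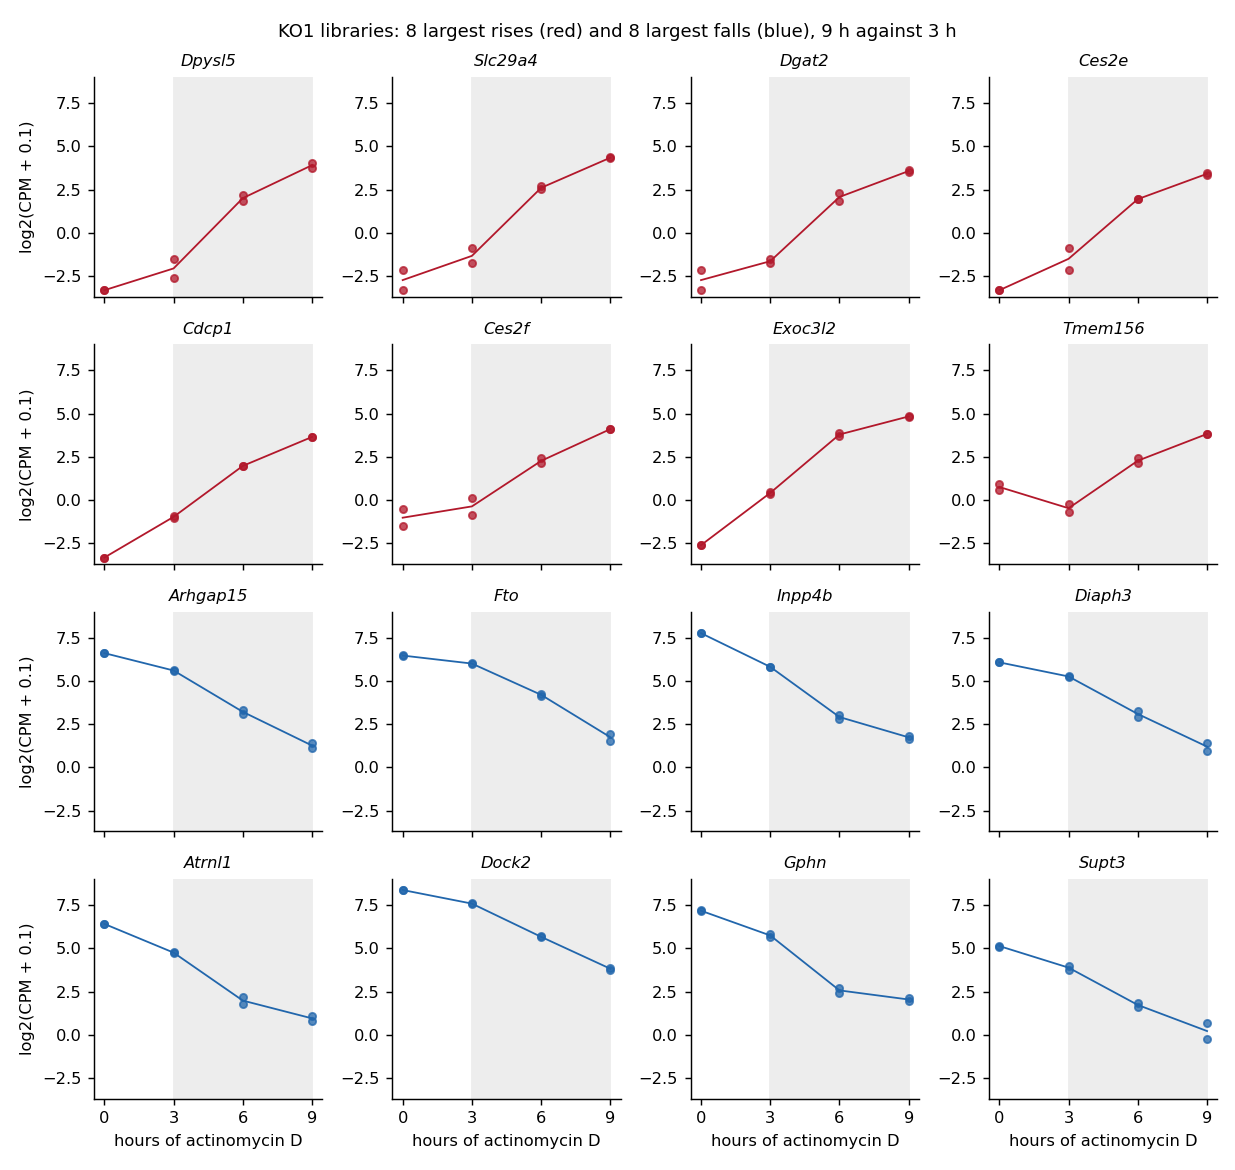
Levels in the KO1 libraries over 0, 3, 6 and 9 h of actinomycin D on the log2(CPM + 0.1) scale for the 8 largest rises (red) and the 8 largest falls (blue) between 3 h and 9 h, with a dot per library, a line through the means and the 3 h to 9 h interval shaded. The naming rule required both 9 h libraries to lie outside the range of the 3 h libraries. Fto, for example, had 2.80 and 3.79 CPM at 9 h, against 64.04 and 64.4 CPM at 3 h.

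From 20 kb upward the fall was larger the longer the span of the gene. For the 9865 genes that averaged 5 CPM or more in KO1 at 0 h, libraries outside the comparison, the median log2 difference was -0.12. It was 0.07 for the 2016 genes of 10 to 20 kb, -0.32 for the 1433 genes of 50 to 100 kb, -0.65 for the 718 genes of 100 to 200 kb, -1.20 for the 232 genes of 200 to 400 kb and -1.99 for the 61 genes of 400 kb or more. The share that fell at least 2-fold was 6.85% at 10 to 20 kb, 57.8% at 200 to 400 kb and 80.3% at 400 kb or more. Of the genes of 400 kb or more 3.28% were called higher. Gene span here is the distance on GRCm39 from the start of the outermost exon to the end of the other, introns included. The length of the exons alone gave a smaller range of medians, -0.06 for genes with 4 to 8 kb of exons and -0.27 for genes with 8 kb or more. Among genes with 9 to 16 exon blocks the order by span was kept from 20 kb upward, with medians of -0.08 at 20 to 50 kb (1401 genes), -0.52 at 100 to 200 kb (214 genes), -1.10 at 200 to 400 kb (60 genes) and -1.90 at 400 kb or more (12 genes). The same bins gave -1.31 in KO2 and -1.28 in WT at 200 to 400 kb, and -2.31 in KO2 and -1.80 in WT at 400 kb or more, so the medians fell with span in all 3 genotypes. These are descriptions across genes, which are not independent replicates.

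**Figure D2:**
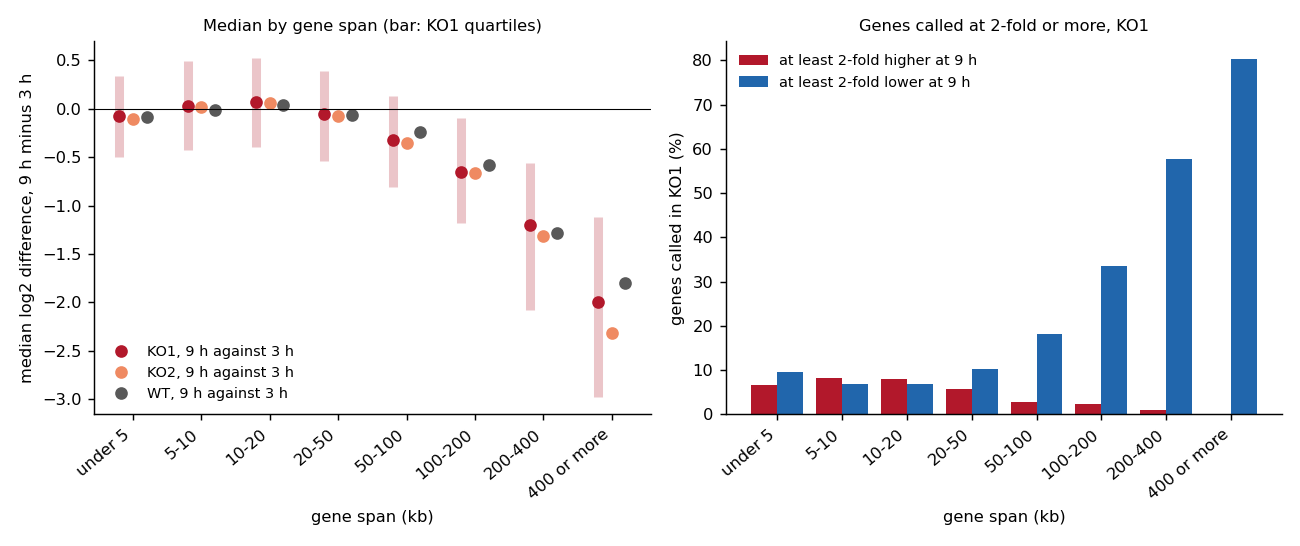
Left, the median log2 difference between 9 h and 3 h by gene span in KO1, KO2 and WT, with the KO1 quartiles as bars; right, the percentage of genes called at least 2-fold higher and at least 2-fold lower in KO1. The KO1 median lies at 0.07 for 10 to 20 kb and -1.99 for 400 kb or more, and the 2-fold lower share reaches 80.3% there.

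The largest rises by ratio were in genes that were almost silent at 3 h. The rule ranked genes by ratio, and these genes reached the mean of 5 CPM only through their 9 h levels. Their low level at 3 h is thus in part set by the rule. The 8 named by the rule were Dpysl5, Slc29a4, Dgat2, Ces2e, Cdcp1, Ces2f, Exoc3l2 and Tmem156. Dpysl5, of the collapsin response mediator family known from growing axons, had 284 and 238 counts at 9 h, against 1 and 4 counts at 3 h. On the CPM scale that was 16.5 and 13.5 at 9 h, against 0.0648 and 0.248 at 3 h, with 0 counts in both 0 h libraries. The ratio of its summed counts, scaled, was 94.5 with a counting interval of 40.3 to 292 (95%, exact), which covers counting error only, and the fitted log2 difference was 6.498 ± 0.32 (SE) (adjusted p = 2.22e-35, edgeR). Slc29a4, a transporter of monoamines at the plasma membrane, had 20.9 and 19.6 CPM at 9 h, against 0.194 and 0.434 CPM at 3 h. Dgat2, which makes triglyceride from diacylglycerol, had 12.4 and 11.3 CPM at 9 h, against 0.194 and 0.248 CPM at 3 h. In all 3 genes the 6 h libraries had already left the 3 h level, with 3.49 and 4.38 CPM for Dpysl5.

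The carboxylesterase genes Ces2e and Ces2f, neighbours on chromosome 8, rose together. Ces2e had 10.02 and 11.1 CPM at 9 h, against 0.454 and 0.124 CPM at 3 h. Ces2f had 17.4 and 16.9 CPM at 9 h, against 0.454 and 0.992 CPM at 3 h. The pair are close relatives, and reads could be shared or lost between them. Cdcp1, a membrane glycoprotein phosphorylated by Src kinases, had 12.5 and 12.5 CPM at 9 h, against 0.389 and 0.434 CPM at 3 h. Exoc3l2, related to an exocyst subunit, was the most abundant of the 8 at 9 h with 27.5 and 29.6 CPM, against 1.30 and 1.18 CPM at 3 h. Tmem156, a predicted membrane protein, had 14.3 and 13.9 CPM at 9 h, against 0.519 and 0.744 CPM at 3 h, and it was the only gene of the 8 whose mean was lower at 3 h than at 0 h, where it had 1.39 and 1.82 CPM. None of the 8 rises was called as different from the KO2 or the WT window, with the lowest adjusted p at 0.12 for Ces2e against WT (edgeR).

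Genes that were near silent at 0 h made up most of the large rises. Called at least 4-fold higher at 9 h were 747 genes (4.62% of all tested), and 346 (2.14%) were called at least 4-fold lower. Of the 747, 562 had under 0.5 CPM in both KO1 libraries of 0 h. Such genes were 2618 of the 16167, and 32.5% of them were called at least 2-fold higher and 3.97% at least 2-fold lower. A gene that is silent at 0 h passes the filter on low counts only if it is high in another group, so part of this asymmetry is set by the filter. At the other end, of the 2658 genes over 100 CPM at 0 h 1.39% were called at least 2-fold higher and 24% at least 2-fold lower, with a median log2 difference of -0.47. In the middle, the 2208 genes of 5 to 20 CPM at 0 h had a median of 0.17.

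**Figure D3:**
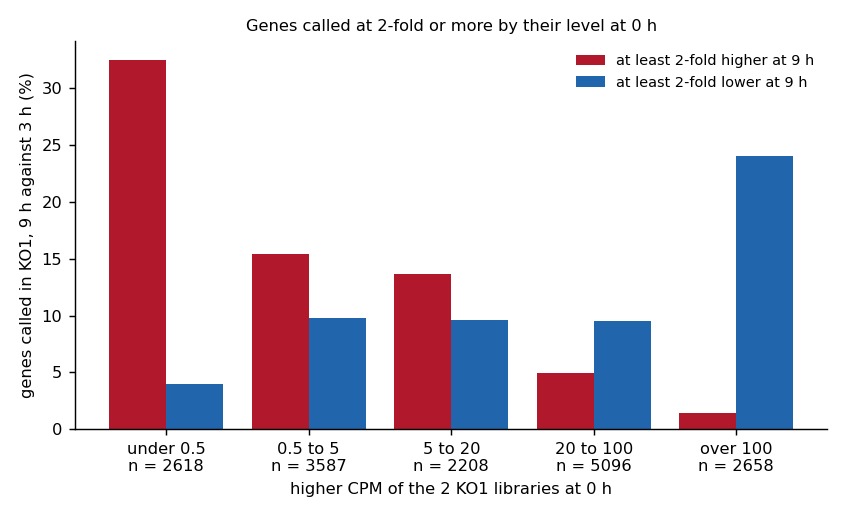
Percentage of genes called at least 2-fold higher (red) and at least 2-fold lower (blue) at 9 h against 3 h in KO1, by the higher of their levels in the 2 KO1 libraries of 0 h. The higher share is 32.5% for genes under 0.5 CPM and 1.39% for genes over 100 CPM, and the lower share is 3.97% and 24%.

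Promoter sequences of the most changed genes are shown because the share of promoters poor in CpG, given after them, was higher among large rises than among all genes tested. RefSeq's table for GRCm38.p6, which holds 250 bases before and 50 bases after each start, matched 9699 of the 12271 protein-coding genes tested. CpG dinucleotides (the letters CG, the same on both strands) are in capitals in the 4 sequences that follow, which run 5′ to 3′ on the strand of the gene. Ces2e lies at chr8:104926010-104926309 (+ strand), Ces2f at chr8:104947106-104947405 (+ strand), Fto at chr8:91313275-91313574 (+ strand) and Gphn at chr12:78226405-78226704 (+ strand).
Ces2e promoter: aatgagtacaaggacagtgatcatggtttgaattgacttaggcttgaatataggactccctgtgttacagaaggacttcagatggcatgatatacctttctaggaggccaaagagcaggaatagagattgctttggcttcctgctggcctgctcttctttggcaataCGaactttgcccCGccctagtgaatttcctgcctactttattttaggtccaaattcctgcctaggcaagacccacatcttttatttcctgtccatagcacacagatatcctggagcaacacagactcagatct
Ces2f promoter: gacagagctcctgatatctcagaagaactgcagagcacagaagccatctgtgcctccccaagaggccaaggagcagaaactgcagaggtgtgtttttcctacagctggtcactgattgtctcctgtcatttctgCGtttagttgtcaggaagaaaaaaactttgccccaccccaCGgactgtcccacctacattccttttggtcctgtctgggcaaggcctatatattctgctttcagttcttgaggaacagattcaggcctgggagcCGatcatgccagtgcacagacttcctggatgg
Fto promoter: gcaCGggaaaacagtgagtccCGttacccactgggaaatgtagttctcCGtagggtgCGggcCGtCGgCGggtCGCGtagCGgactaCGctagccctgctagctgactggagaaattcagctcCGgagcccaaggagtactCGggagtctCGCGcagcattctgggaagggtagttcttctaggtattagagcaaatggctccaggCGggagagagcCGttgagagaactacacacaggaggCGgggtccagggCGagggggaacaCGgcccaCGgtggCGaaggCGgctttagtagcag
Gphn promoter: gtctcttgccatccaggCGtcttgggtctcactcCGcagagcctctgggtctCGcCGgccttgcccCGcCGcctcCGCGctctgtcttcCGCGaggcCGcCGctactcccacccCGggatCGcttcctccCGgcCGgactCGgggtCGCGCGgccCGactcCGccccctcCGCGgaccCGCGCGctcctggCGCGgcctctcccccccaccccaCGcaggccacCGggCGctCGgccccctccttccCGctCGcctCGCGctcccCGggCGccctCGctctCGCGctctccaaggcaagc
Ces2e holds 2 CG and Ces2f 3 CG in 300 bases, while Fto holds 23 and Gphn 42. These 4 were picked for the contrast after their values were seen, and it does not hold for every gene, since Dpysl5 holds 19 CG and Slc29a4 22 among the rises, and Arhgap15 and Dock2 5 each among the falls.

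Over all promoters matched, 46.0% of the 378 genes that rose at least 4-fold had a ratio of observed to expected CG under 0.4, against 18.4% of all 9699. The share was 28.6% for the 733 genes that rose 2 to 4-fold, 14.9% for the 941 that fell 2 to 4-fold and 21.3% for the 216 that fell at least 4-fold. In the whole promoter table, which includes genes not expressed here, it was 50.9% of 27025. Level at 0 h moved with this share. Among genes under 0.5 CPM in both 0 h libraries it was 48.7% of the 275 that rose at least 4-fold and 54.6% of the 669 others, so within silent genes the risers did not have the higher share. Among genes above that level it was 38.8% of the 103 that rose at least 4-fold and 14.4% of the 8652 others. Span differed too, with a median of 144 kb for the genes that fell at least 4-fold, against 22.0 kb for all 9699.

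Ribosomal proteins and the factors that make and use ribosomes differed in the size of their change. For the lists from here on, the shares over all genes tested were 32.1% higher and 33.0% lower. Over the 2658 genes above 100 CPM at 0 h the shares were 17.3% and 73.5%. Of 82 cytosolic ribosomal protein genes 11 rose and 62 fell, with a median log2 difference of -0.14, against 0.02 over all genes, and none moved 2-fold. This direction depends on the scale, since with gene totals 49 were higher and 21 lower with a median of 0.08, and with spike-in totals the median was 0.10. Within the list the values reached from -0.64 to 0.32 on the log2 scale. Rplp0, a protein of the ribosomal stalk, had 6028 and 6001 CPM at 9 h, against 5376 and 5420.3 CPM at 3 h (log2 difference 0.16 ± 0.0131 (SE), adjusted p = 5.51e-20, edgeR). Rpl7a had 1146 and 1159.8 CPM at 9 h, against 1719.6 and 1718 CPM at 3 h, and at 9 h it was close to the level of the 0 h libraries, 1173 and 1170.2 CPM. In the first 3 h 80 of the 82 genes had risen (37.9% of all genes did), and between 3 h and 6 h 49 rose and 9 fell, whereas 79 were lower at 9 h than at 6 h. Over all genes 25.5% rose and 28.7% fell between 3 h and 6 h, and 19.9% fell between 6 h and 9 h. These steps turned with the scale, since with spike-in totals 0 of the 82 were higher and 74 lower at 6 h than at 3 h, and 78 were higher and 0 lower at 9 h than at 6 h.

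Factors of translation fell further. Of 44 initiation and elongation factors 41 fell and 1 rose, with a median of -0.62. Eif4g3, a scaffold of the cap-binding complex that spans 215 kb, had 18.3 and 19.4 CPM at 9 h, against 129.6 and 123 CPM at 3 h, a fall of 6.70-fold. Eif2b2, a subunit of the exchange factor for eIF2, was the one that rose, to 84.7 and 86.8 CPM at 9 h, against 64.2 and 64.3 CPM at 3 h. Another subunit of the same factor, Eif2b3, fell to 11.2 and 11.4 CPM, against 36.8 and 39.1 CPM at 3 h.

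Of 100 ribosome assembly factors 78 fell, 29 of them at least 2-fold, and 10 rose, with a median of -0.61. Nop58, a core protein of box C/D snoRNPs, had 59.7 and 60.8 CPM at 9 h, against 259.9 and 262 CPM at 3 h (log2 difference -2.12 ± 0.0415 (SE), adjusted p = 1.30e-70, edgeR). Rrp15 fell 4.38-fold, and Utp23 of the small-subunit processome rose to 73.01 and 75.4 CPM, against 32.9 and 33.7 CPM at 3 h. Of 15 genes for RNA polymerase I and its factors 9 fell and 3 rose, and with gene totals 7 were lower and 5 higher. The rise of Polr1c, a subunit shared with RNA polymerase III, was not called without KO1 3 h replicate 2 (0.12 on the log2 scale) or without the 18S-like locus, Lars2 and the mitochondrial genes (0.10). Polr1b, the second-largest subunit of the enzyme, had 13.5 and 15.2 CPM at 9 h, against 53.7 and 59.05 CPM at 3 h. Ttf1, which terminates ribosomal RNA transcription, had 47.7 and 47.99 CPM at 9 h, against 28.6 and 27.7 CPM at 3 h. The directions of Polr1b and Ttf1 thus differed within the same machinery. Of 15 snoRNA host transcripts 11 fell and 2 rose, and with gene totals 6 were lower and 2 higher. Snhg17 fell to 38.4 and 38.1 CPM at 9 h, against 77.7 and 80.6 CPM at 3 h.

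Most genes of protein quality control fell, as did most abundant genes. That held for 73.5% of the 2658 genes over 100 CPM at 0 h (median log2 difference -0.47), against 33.0% of all genes. Of 35 proteasome subunits 33 fell and 2 rose, with a median of -0.63. Psmd14, the deubiquitinase of the proteasome lid, had 34.03 and 38.5 CPM at 9 h, against 189.6 and 190.3 CPM at 3 h, a fall of 5.23-fold. Psmb7, a catalytic subunit, fell to 33.3 and 29.6 CPM, against 117 and 113 CPM at 3 h. The members that rose were Psmd10 and Psmd2, and Psmd2, a scaffold of the base of the regulatory particle, had 658 and 667 CPM at 9 h, against 583 and 589.8 CPM at 3 h. Of 27 cytosolic heat-shock and CCT chaperones 22 fell and 4 rose, with the lowest median of the 35 lists, -0.90. Hspa8, the constitutive Hsc70, had 850.3 and 842 CPM at 9 h, against 3236 and 3249.9 CPM at 3 h (log2 difference -1.94 ± 0.0165 (SE), adjusted p = 2.22e-104, edgeR). It had 735 and 724 CPM at 0 h and 2189 and 2200.1 CPM at 6 h, so the fall followed a rise of the first 3 h. Cct6a, a subunit of the CCT chaperonin, had 188 and 195 CPM at 9 h, against 617 and 617 CPM at 3 h. The inducible Hspa1a was called higher with 13 and 8 counts at 9 h, against 1 and 0 counts at 3 h, and Hspa1b with 20 and 9 counts at 9 h, against 1 and 2 counts at 3 h. They are near-identical genes between which reads can be shared or lost, and the call of Hspa1b was lost without KO1 9 h replicate 1 (log2 difference 2.33).

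Most chaperone genes of the endoplasmic reticulum and most stress genes fell, while a minority of each rose. Of 25 endoplasmic reticulum chaperone genes 18 fell and 4 rose. Manf, a secreted stress protein, had 96.6 and 92.6 CPM at 9 h, against 283 and 277 CPM at 3 h. Dnajb9, a co-chaperone of BiP, had 176 and 172 CPM at 9 h, against 98.9 and 98 CPM at 3 h, and its rise came after 6 h, when it still had 104 and 107 CPM. Of 37 genes of the integrated stress response 24 fell, 15 of them at least 2-fold, and 9 rose, with a median of -0.87. Eprs and Lars, aminoacyl-tRNA synthetases that the response induces, led the falls. Eprs had 79.7 and 74.4 CPM at 9 h, against 612 and 622 CPM at 3 h, a fall of 8.01-fold (log2 difference -3.00 ± 0.0298 (SE), adjusted p = 5.38e-98, edgeR). Trib3, a pseudokinase induced by the same response, rose to 108 and 108 CPM, against 46.2 and 44.1 CPM at 3 h, after it had dropped sharply by 3 h, with 709 and 706 CPM at 0 h.

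Most short-lived regulators rose in the window. Of 47 immediate early and short-lived regulators 34 rose and 6 fell, with a median of 0.70. Between 3 h and 0 h 16 of them rose and 26 fell (37.9% and 33.4% of all genes did), with a median of -0.50, in a comparison that shares the 3 h libraries. Egr2, a zinc-finger transcription factor, had 13.98 and 16.5 CPM at 9 h, against 4.80 and 4.53 CPM at 3 h. Nr4a1 and Atf3, named by the rule as the list's largest rises, stayed under 1 CPM in the 3 h and 9 h libraries. The call for Atf3 (2.25 on the log2 scale) was lost without KO1 3 h replicate 2 (1.66) or KO1 9 h replicate 2 (1.82), and that for Nr4a1 without KO1 9 h replicate 2 (adjusted p = 0.0502, edgeR). Myc went against the list, with 16.9 and 15.5 CPM at 9 h, against 46.02 and 42.5 CPM at 3 h (log2 difference -1.45 ± 0.0732 (SE), adjusted p = 4.42e-35, edgeR). It had 481 and 492 CPM at 0 h, so most of its loss preceded the window. The difference of the Myc window did not pass the test against WT, at 0.12 ± 0.105 (SE) (adjusted p = 0.468, edgeR), or against KO2, at 0.07 ± 0.107 (SE) (adjusted p = 0.83, edgeR).

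Of 45 p53 targets 31 rose and 8 fell, with a median of 0.32, and in the first 3 h 33 of them had risen (37.9% of all genes did) with a median of 1.01. Ccng2, a cyclin of growth-arrested cells, had 153 and 153 CPM at 9 h, against 23.8 and 23.2 CPM at 3 h (log2 difference 2.70 ± 0.0575 (SE), adjusted p = 2.09e-67, edgeR). Most of that rise was in place at 6 h, with 116 and 114 CPM. Pvt1, a non-coding RNA beside Myc that spans 340.1 kb, fell to 8.45 and 9.79 CPM, against 26.9 and 24.2 CPM at 3 h. In the BCL2 family, which decides between survival and death at mitochondria, 6 of 18 rose and 9 fell on the TMM scale, while gene totals gave 10 higher and 6 lower. Pmaip1 (Noxa), which promotes death and is a p53 target, had 431 and 430.0 CPM at 9 h, against 155 and 156 CPM at 3 h and 36.1 and 34.5 CPM at 0 h. Bcl2, which protects from death, had 13.6 and 13.8 CPM at 9 h, against 48.3 and 50.7 CPM at 3 h and 235 and 244 CPM at 0 h. The libraries of 9 h thus lay above those of 3 h for Pmaip1 and below them for Bcl2. Both were named for their large called changes within the list, so this separation comes with the selection.

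Of 33 genes of IL-3 and STAT5 signalling 21 fell and 10 rose, with a median of -0.21 that turned to 0.01 with gene totals, where 13 were higher and 12 lower. Grb2, the adaptor between receptors and Ras, had 40.96 and 41.4 CPM at 9 h, against 137 and 139.7 CPM at 3 h. Lyn, a Src family kinase, had 20.9 and 19.1 CPM at 9 h, against 56.7 and 55.4 CPM at 3 h. The feedback inhibitors moved the other way, with 123 and 128 CPM for Socs2 at 9 h, against 51.3 and 53.6 CPM at 3 h, and 25.6 and 20.9 CPM for Socs1 at 9 h, against 11.9 and 11.6 CPM at 3 h.

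Mitotic genes gained share while those of DNA replication split. Of 62 mitotic genes 41 rose, 12 of them at least 2-fold, and 10 fell, with a median of 0.49. In the first 3 h 47 of them had fallen (33.4% of all genes did), with a median of -0.77. Cdc25c, the phosphatase that activates Cdk1, had 34.3 and 36.3 CPM at 9 h, against 8.95 and 8.31 CPM at 3 h (log2 difference 2.03 ± 0.105 (SE), adjusted p = 2.33e-34, edgeR). Kif18b, a motor of the spindle, had 145 and 135 CPM at 9 h, against 50.6 and 48.01 CPM at 3 h. Cdk1 itself and Top2a went the other way, and Top2a, the topoisomerase that untangles sister chromatids, had 115 and 121 CPM at 9 h, against 297 and 275 CPM at 3 h.

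Of 57 genes of G1/S and DNA replication 22 rose and 26 fell, and the median of -0.07 turned to 0.15 with gene totals, where 29 were higher and 17 lower. The subunits of DNA polymerase alpha and primase differed among themselves. Pola1, its catalytic subunit, spans 327 kb and had 7.57 and 6.00 CPM at 9 h, against 54.8 and 53.6 CPM at 3 h. Prim2, a primase subunit of 216 kb, had 2.56 and 3.00 CPM at 9 h, against 12.1 and 10.9 CPM at 3 h. Prim1, the other primase subunit, spans 14.9 kb and had 69.7 and 72.05 CPM at 9 h, against 27.9 and 30.5 CPM at 3 h. Pola1 and Prim2 thus fell and Prim1 rose. Whether direction went with span among the subunits of this enzyme was not tested. Most replication-dependent histone mRNAs end without a poly(A) tail. Of 54 histone genes listed 22 matched a symbol and 15 were tested. Among the 15 9 rose and 2 fell, with 10.2 and 7.98 CPM for Hist1h2bh at 9 h, against 1.56 and 0.868 CPM at 3 h. The linker histone Hist1h1c fell to 32.7 and 37.2 CPM, against 70.5 and 74.99 CPM at 3 h. The other call of a fall was for H1f0 (-0.11 on the log2 scale), which was listed here but is not a replication-dependent histone. The call was lost with RLE factors (DESeq2's scaling) and with DESeq2. The value was -0.02 without KO1 3 h replicate 2 and -0.09 without KO1 9 h replicate 1. It turned to a rise of 0.11 with gene totals and 0.13 with spike-in totals. The median of the 15 was 1.97, and 1.19 without KO1 9 h replicate 1.

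In energy metabolism most respiratory chain genes fell, and glycolysis genes went both ways. Falls made up 47.1% of the 9865 genes of 5 CPM or more at 0 h, and 73.5% of the 2658 genes over 100 CPM. Of 79 nuclear genes of the respiratory chain 55 fell and 12 rose, with a median of -0.28, and with gene totals 33 were lower and 26 higher. By step, 68 were lower at 9 h than at 6 h, whereas between 3 h and 6 h 32 rose and 25 fell. Over all genes 19.9% were lower at 9 h than at 6 h, and 25.5% rose and 28.7% fell between 3 h and 6 h. With spike-in totals 58 were higher and 2 lower at 9 h than at 6 h, and 2 were higher and 59 lower at 6 h than at 3 h, so the steps turned with the scale. Ndufs4, a complex I subunit that spans 100.5 kb, had 21.04 and 18.8 CPM at 9 h, against 55.03 and 55.2 CPM at 3 h. Atp5c1, of the ATP synthase, had 104 and 111 CPM at 9 h, against 251 and 242 CPM at 3 h. The complex I subunit Ndufb2 rose to 48.2 and 47.9 CPM, against 30.5 and 29.2 CPM at 3 h. Of 79 mitochondrial ribosomal proteins 51 fell and 11 rose, and with gene totals 22 were higher and 38 lower. The largest fall was that of Mrps28, which spans 122 kb and had 7.46 and 6.06 CPM at 9 h, against 28.4 and 29.03 CPM at 3 h.

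Transcripts of the mitochondrial genome, which has its own RNA polymerase, went both ways. Of its 13 protein genes 6 fell and 3 rose. The rises of mt-Co2 and mt-Co3 were not called by DESeq2 (adjusted p = 0.194 and 0.323, DESeq2). For mt-Co3 the log2 difference was 0.43 without KO1 3 h replicate 2 and 0.33 without KO1 9 h replicate 1. The complex I gene mt-Nd2 had 1491 and 1509 CPM at 9 h, against 2407 and 2408 CPM at 3 h. The ribosomal RNAs of the same genome, picked out after their values were seen, were higher at 9 h, with 1637 and 1623 CPM of gene totals for mt-Rnr1 at 9 h, against 543 and 560.4 CPM at 3 h. For mt-Rnr2 the values were 1380 and 1373 CPM of totals at 9 h, against 825 and 806 CPM at 3 h.

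Of 24 glycolytic genes 9 rose and 11 fell, and the median of -0.05 turned to 0.17 with gene totals, where 10 were higher and 8 lower. It was -0.15 without KO1 3 h replicate 1, -0.03 without KO1 3 h replicate 2, -0.17 without KO1 9 h replicate 1 and -0.03 without KO1 9 h replicate 2. Tpi1, triose phosphate isomerase, had 942 and 951 CPM at 9 h, against 634 and 641 CPM at 3 h (log2 difference 0.57 ± 0.0194 (SE), adjusted p = 3.87e-49, edgeR). Eno2 had 57.2 and 55.2 CPM at 9 h, against 21 and 18.98 CPM at 3 h. Pfkp, the platelet form of phosphofructokinase, fell to 133 and 135 CPM, against 353 and 344 CPM at 3 h. Of 22 other hypoxia genes 14 rose and 5 fell, and Ankrd37, a target of hypoxia-inducible factor, had 37.7 and 36.3 CPM at 9 h, against 8.30 and 7.69 CPM at 3 h. Of 27 genes of cholesterol synthesis and uptake 14 rose and 7 fell. Insig1, which holds the sterol sensor in the endoplasmic reticulum, had 128 and 132 CPM at 9 h, against 67.3 and 71.9 CPM at 3 h.

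Among genes that handle RNA, falls outnumbered rises on the TMM scale, as they did among expressed genes in general. At 5 CPM or more at 0 h, 34.0% of 9865 genes rose and 47.1% fell. Of 56 mRNA decay genes 31 fell and 16 rose, with a median of -0.30, and with gene totals 26 were lower and 23 higher. Exosc5, a core subunit of the RNA exosome, had 22.1 and 23.7 CPM at 9 h, against 89.4 and 92.4 CPM at 3 h. Upf3b, of nonsense-mediated decay, rose to 148 and 146 CPM, against 70.7 and 77.9 CPM at 3 h. Among 22 proteins that bind AU-rich elements 11 fell and 7 rose, a majority that turned with gene totals to 12 higher and 10 lower. Hnrnpd (AUF1), which promotes decay of such mRNAs, had 27.2 and 27.8 CPM at 9 h, against 190.1 and 184 CPM at 3 h, a fall of 6.79-fold. Zc3h12a (Regnase-1), an endonuclease, rose to 80.3 and 77.3 CPM, against 41.8 and 44.2 CPM at 3 h.

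Of 44 RNA modification enzymes 24 fell and 7 rose, with a median of -0.24 that was -0.02 with gene totals, where 16 were higher and 18 lower. Fto, described above, and Trmt61a led the falls, and Trmt61a, a tRNA methyltransferase, had 3.09 and 3.62 CPM at 9 h, against 19.96 and 21.4 CPM at 3 h. Nsun6, a cytosine methyltransferase of tRNA, rose to 12.8 and 13.02 CPM, against 5.90 and 5.83 CPM at 3 h. Nat10 fell 1.73-fold between 3 h and 9 h (log2 difference -0.79 ± 0.0555 (SE), adjusted p = 7.01e-25, edgeR), from the values given above, and its 6 h libraries at 66.4 and 59.9 CPM lay between. Thumpd1, its partner on tRNA and not named by the rule, did not pass the test, with a log2 difference of -0.01 (adjusted p = 0.877, edgeR). Among 19 SR splicing factors and their kinases 10 fell and 8 rose, and the median of -0.20 turned to 0.02 with gene totals. Srsf3 had 81.5 and 75.95 CPM at 9 h, against 332 and 335 CPM at 3 h, and it had reached its low level by 6 h, with 87.2 and 85.1 CPM. Clk3, a kinase of these proteins, rose to 152 and 153 CPM, against 84.9 and 83.2 CPM at 3 h. Of 14 tubulins 9 fell and 5 rose, with 220.1 and 226 CPM for Tuba1b at 9 h, against 649 and 665 CPM at 3 h. Tubulin mRNAs are a known case of decay that responds to free tubulin.

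Interferon-stimulated genes and some markers of mature blood cells rose. Of 45 interferon-stimulated genes 26 rose, 13 of them at least 2-fold, and 6 fell, with a median of 0.64 that was 0.41 without KO1 9 h replicate 1. Gbp3, a GTPase of innate immunity, had 41.4 and 39.5 CPM at 9 h, against 2.46 and 3.23 CPM at 3 h (log2 difference 3.82 ± 0.133 (SE), adjusted p = 3.28e-48, edgeR). Tgtp1, an interferon-induced GTPase, had 14.3 and 16.02 CPM at 9 h, against 1.75 and 0.744 CPM at 3 h. Dhx58, a regulator of RNA sensing, fell to 9.09 and 6.74 CPM, against 16.01 and 14.7 CPM at 3 h. Members of the Gbp, Oas and Mx families are similar in sequence and could share reads.

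Of the 14 macrophage and monocyte markers 7 were tested, of which 5 rose and 2 fell, while C1qa, C1qb, C1qc and Marco had 0 counts in the 4 libraries. Csf1r, the receptor for macrophage colony-stimulating factor, had 30.01 and 30.8 CPM at 9 h, against 2.33 and 1.98 CPM at 3 h and 0.332 and 0.376 CPM at 0 h. Fcgr1 and Adgre1 of the same list fell, with 29.7 and 29.3 CPM for Fcgr1 at 9 h, against 71.1 and 66.9 CPM at 3 h. Summed over the list the level was 426 and 426 CPM of totals at 9 h, against 201 and 192 at 3 h. Of 14 neutrophil and granule genes tested 4 rose and 6 fell, and Cebpe, a transcription factor of granulocytes, rose to 160.1 and 159 CPM, against 113 and 112 CPM at 3 h. Of the 12 myeloid progenitor markers tested 2 rose and 8 fell. Gfi1, a repressor needed for granulocytes, had 49.2 and 50.3 CPM at 9 h, against 14.97 and 13.6 CPM at 3 h, and at 0 h it had 60.9 and 64.9 CPM. Of 15 erythroid and megakaryocyte genes tested 6 rose and 6 fell, with 22.6 and 22.1 CPM for Epor at 9 h, against 8.95 and 10.54 CPM at 3 h. Of 10 mast cell and basophil genes tested 3 rose and 3 fell, and the falls of Srgn and Fcer1g turned into rises with gene totals, at 0.04 and 0.10 on the log2 scale. Of the 5 stromal genes tested 0 were called by edgeR and 0 by DESeq2, and 0 had an unadjusted p under 0.05 in edgeR. Whether these markers reflect other cells in the culture was not tested.

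**Figure D4:**
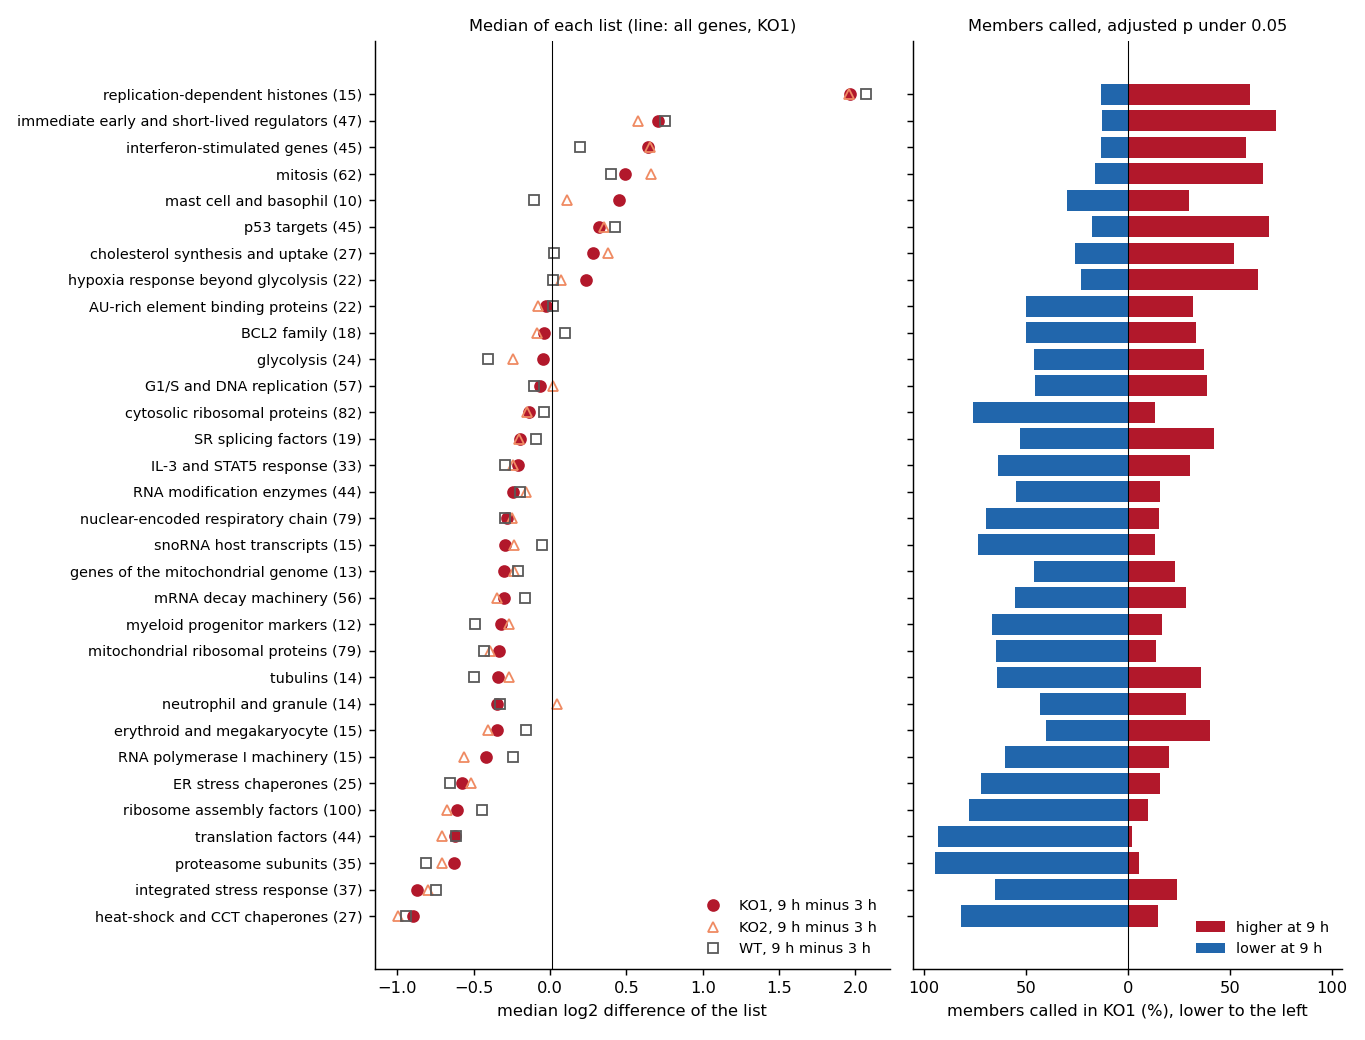
Left, the median log2 difference between 9 h and 3 h of each gene list with 10 or more genes tested (number in brackets) in KO1, KO2 and WT, with the KO1 median over all genes as a line; right, the percentage of members called higher and lower in KO1. Histones and immediate early genes have the highest KO1 medians, at 1.97 and 0.70, and heat-shock and CCT chaperones the lowest, at -0.90.

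Zinc-finger genes with a Zfp symbol, many of which encode repressors of transcription, were examined because their mRNAs are known to be short-lived. Of the 256 at 5 CPM or more at 0 h 54.7% were called higher and 24.2% lower at 9 h, with a median log2 difference of 0.27, against 34.0% and 47.1% of the 9865 genes at that level. Their median was 0.30 in KO2 and 0.34 in WT. By class of transcript, the 755 antisense genes had a median of 0.34 and the 604 long intergenic RNAs one of 0.14, against -0.02 for the 12271 protein-coding genes. Counting without strand cannot tell antisense reads from those of the gene opposite.

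On the TMM scale, which is relative to the gene counts, the same interval in the other genotypes was close to that in KO1. Spike-in RNA made up 844 and 824 CPM in KO2 at 9 h, against 533 and 506 CPM at 3 h. In KO1 it made up 258 and 257 CPM at 9 h, against 260 and 263 CPM at 3 h. In WT, on few counts, it made up 15.9 and 12.2 CPM at 9 h, against 10.7 and 8.46 CPM at 3 h. The windows were not compared on a spike-in scale. Across the 10144 genes that averaged 5 CPM or more in the 4 KO1 libraries, Pearson's r across genes between the KO1 and the KO2 window was 0.974, and between the KO1 and the WT window 0.939. No library is shared between windows, genes are not independent replicates, and no p is given. In KO2 10707 genes (66.2%) were called between 3 h and 9 h, 5258 (32.5%) higher and 5449 (33.7%) lower, and in WT 10649 (65.9%), 5533 (34.2%) higher and 5116 (31.6%) lower. The difference between windows was then tested directly. Against KO2 491 genes (3.04%) were called, 324 (2.0%) with a higher value in KO1 and 167 (1.03%) with a lower one. At least 2-fold higher were 12 (0.0742%) and at least 2-fold lower 19 (0.118%). Against WT 3414 genes (21.1%) were called, 1781 (11%) higher and 1633 (10.1%) lower in KO1. At least 2-fold higher were 86 (0.532%) and at least 2-fold lower 180 (1.11%), while 2433 differed by less than 0.5 on the log2 scale. Leaving out the 18S-like locus, Lars2 and the mitochondrial genes gave 418 against KO2, with 50.7% higher in place of 66.0%, and 3400 against WT. With DESeq2 64.3% of 2746 calls against WT were higher in KO1, against 52.2% with edgeR. Leaving out a library of KO1 or KO2 gave 304 to 395 calls against KO2, with the lowest count without KO1 3 h replicate 1.

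**Figure D5:**
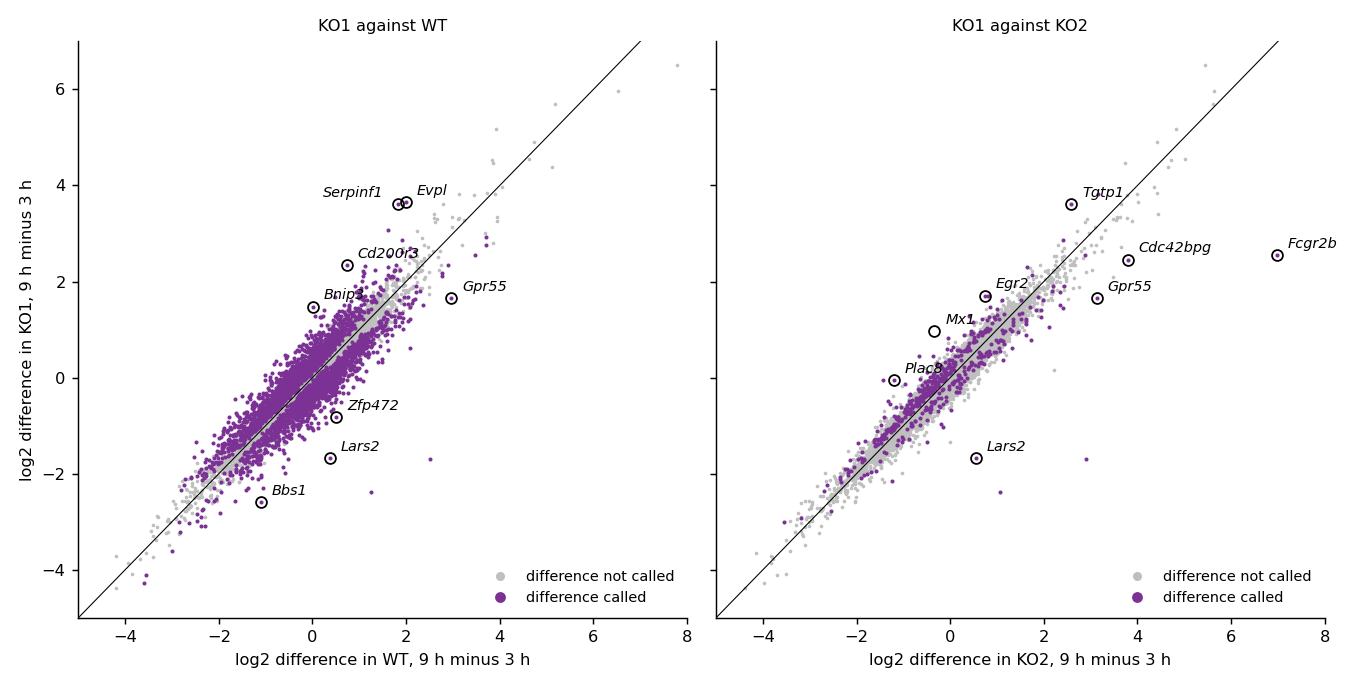
Log2 difference between 9 h and 3 h in KO1 against the same in WT (left) and in KO2 (right), for genes that averaged 5 CPM or more in the 4 KO1 libraries, with the line of equality and genes whose difference between windows was called in purple. The named genes are ringed, among them Bnip3 at 1.48 in KO1 and 0.02 in WT, and Lars2 at -1.67 in KO1, 0.55 in KO2 and 0.37 in WT.

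Bnip3, a mitochondrial protein of mitophagy and a target of hypoxia-inducible factor, was among the genes with a higher value in KO1 than in WT. In KO1 it had 99.4 and 94.1 CPM at 9 h, against 33.6 and 35.7 CPM at 3 h. In WT it had 86.9 and 89.9 CPM at 9 h, against 88.1 and 86.9 CPM at 3 h. The KO1 libraries thus stood below WT at 3 h and above it at 9 h (difference of windows 1.46 ± 0.0756 (SE) on the log2 scale, adjusted p = 5.54e-32, edgeR). It differed also from KO2, by 0.63 ± 0.08 (SE). Serpinf1, a secreted serpin that inhibits blood vessel growth, had 15.97 and 15.3 CPM in KO1 at 9 h, against 1.23 and 1.30 CPM at 3 h, and 7.11 and 7.32 CPM in WT at 9 h, against 2.19 and 1.86 CPM at 3 h. Evpl, a protein of cell junctions, had 38.8 and 43.3 CPM in KO1 at 9 h, against 3.05 and 3.47 CPM at 3 h, and 17.8 and 18.01 CPM in WT at 9 h, against 4.38 and 4.62 CPM at 3 h. For Serpinf1 and Evpl the KO1 libraries were lower than WT at 3 h and higher at 9 h.

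Lower in KO1 than in WT were Lars2, Bbs1, Zfp472 and Gpr55. Lars2 moved with the rRNA-like reads of the KO1 3 h libraries described above, and its difference of windows was -2.04 ± 0.0507 (SE) against WT and -2.22 ± 0.0505 (SE) against KO2. Bbs1, of the complex that carries proteins into cilia, had 1.98 and 2.21 CPM in KO1 at 9 h, against 13.1 and 12.2 CPM at 3 h, and 3.61 and 4.70 CPM in WT at 9 h, against 8.62 and 9.17 CPM at 3 h. Zfp472 had 15.2 and 14.4 CPM in KO1 at 9 h, against 26.2 and 26.2 CPM at 3 h, and 15.8 and 16.9 CPM in WT at 9 h, against 11.4 and 11.5 CPM at 3 h, so it fell in KO1 and rose in WT. Nat10 fell further in KO1 than in WT, with a difference of windows of -0.33 ± 0.0771 (SE) (adjusted p = 5.00e-04, edgeR), while the difference from KO2 did not pass the test, at 0.03 ± 0.0791 (SE) (adjusted p = 0.934, edgeR).

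Several lists differed between the KO1 and the WT window, where 11% of all genes were higher and 10.1% lower in KO1. Of 24 glycolytic genes 17 were higher and 1 lower in KO1, with medians of -0.05 in the KO1 window and -0.41 in the WT window. Of 35 proteasome subunits 21 were higher and 0 lower, and of 45 interferon-stimulated genes 18 were higher and 1 lower. Of 82 cytosolic ribosomal proteins 2 were higher and 59 lower in KO1, with medians of -0.14 in KO1 and -0.04 in WT. Of 100 ribosome assembly factors 3 were higher and 40 lower, with medians of -0.61 in KO1 and -0.45 in WT. Tpi1 shows the size for glycolysis, with a difference of windows of 0.42 ± 0.0271 (SE) (adjusted p = 6.61e-25, edgeR).

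Against KO2 the named differences were few and some rested on few counts. Mx1, an interferon-induced GTPase that blocks viruses, was at 2.97 and 3.62 CPM in KO1 at 9 h, against 1.23 and 2.11 CPM at 3 h, while KO2 had 83.2 and 93.1 CPM at 9 h, against 107 and 116 CPM at 3 h. The level in KO2 was thus far above that in KO1 at both times. The windows differed in their change (log2 difference of windows 1.31 ± 0.262 (SE), adjusted p = 3.64e-04, edgeR), and the difference of 0.98 without KO1 3 h replicate 1 did not pass the test. Plac8 did not pass the test in KO1, with 35.3 and 36.3 CPM at 9 h, against 37.9 and 36.1 CPM at 3 h, and fell in KO2 to 107 and 112 CPM at 9 h, against 248 and 255 CPM at 3 h. Gpr55, a receptor for lysophospholipids, rose in both, to 17.5 and 16.8 CPM in KO1 at 9 h, against 4.80 and 6.02 CPM at 3 h, and to 19.2 and 21.3 CPM in KO2 at 9 h, against 2.33 and 2.26 CPM at 3 h. Fcgr2b, the inhibitory Fc receptor, had 310 and 275 counts in KO1 at 9 h, against 53 and 37 at 3 h, and 86 and 99 counts in KO2 at 9 h, against 0 and 1 at 3 h. The scaled ratio was 6.86 in KO1 (95% counting interval 5.49 to 8.66) and 182.0 in KO2 (32.2 to 7210), so the fitted difference depends on how a count near 0 is treated. Of 45 interferon-stimulated genes 13 were higher and 3 lower in KO1 than in KO2, and of 24 glycolytic genes 12 were higher and 0 lower, where 2.0% and 1.03% of all genes were. Without the 18S-like locus, Lars2 and the mitochondrial genes 10 of the interferon-stimulated genes were higher and 4 lower, and 11 and 0 of the glycolytic genes.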

How the data were processed

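Each deposited table gives the counts of 1 library, made by the authors as read pairs assigned to genes. Per the file headers this was done with featureCounts 1.6.3 over exons grouped by gene, in paired-end mode and without strand, against Ensembl release 105 of GRCm39 joined with ERCC sequences. STAR and DESeq2 are also named in the submitters' processing notes, without a version. The library kit kept strand, per the labels, but reads of overlapping and antisense genes cannot be told apart in these counts. The tables list 55414 genes and 92 spike-in transcripts, which were set aside, and 0 entries name no gene. GENCODE release M21 gave symbols for 52081 genes.

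From these counts, genes were kept with filterByExpr at a minimum count of 10 in edgeR 4.0.16 (R 4.3.3), which left 16167, and libraries were scaled by TMM. All 24 libraries entered 1 quasi-likelihood model with a term for each of 12 groups, which leaves 12 residual degrees of freedom, and tests were two-sided. A gene was called where its p, adjusted by Benjamini and Hochberg's method over all genes tested, was under 0.05, and "rose" and "fell" are used of called genes. CPM are on the TMM scale unless given as CPM of gene totals. Libraries of a group differed by more than counting noise (chi-square per degree of freedom 1.43 to 1.51 in KO1), so none were merged. The model was also run on simulated counts, and that run is not used as support here. Spike-in totals served as an alternative scale in KO1, with 3742 to 5780 spike-in counts per library. They were not used as a scale in KO2, or in WT, with 120 to 257 counts. Other alternatives were RLE factors, gene totals, no filter, DESeq2 1.42.0, fits on fewer libraries, a replicate block, and leaving out each library. Leaving out the 18S-like locus, Lars2 and the mitochondrial genes was chosen after seeing the data.

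Members and the 35 gene lists (1298 entries, 1168 tested) were chosen with earlier results of these data known. Genes were named by a rule: the 8 largest called changes each way at 5 CPM or more without overlap, up to 2 members of each list each way, the 4 largest differences between windows each way, and Nat10. Counts carry no molecular identifiers, so intervals cover counting error only.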

Additional observations from a re-analysis of the deposited data

Results flagged for a closer look

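These results are listed because the change between 3 h and 9 h differed between genotypes by a direct test of the difference (edgeR, all 24 libraries). The test called 3414 genes between the KO1 and the WT window and 491 between the KO1 and the KO2 window. Against WT the difference of windows on the log2 scale was 1.78 for Serpinf1, 1.66 for Evpl, 1.61 for Cd200r3 and 1.46 for Bnip3. It was -2.04 for Lars2, -1.49 for Bbs1, -1.34 for Zfp472 and -1.30 for Gpr55. Against KO2 it was 1.31 for Mx1, 1.15 for Plac8, 1.02 for Tgtp1 and 0.97 for Egr2, and -4.42 for Fcgr2b, -2.22 for Lars2, -1.47 for Gpr55 and -1.34 for Cdc42bpg. Cd200r3 had 19.2 and 18.96 CPM in KO1 at 9 h, against 3.95 and 3.60 CPM at 3 h, and 13.6 and 12.8 CPM in WT at 9 h, against 6.57 and 9.30 CPM at 3 h. The difference from KO2 was not called without KO1 3 h replicate 1 for Mx1 (0.98), nor without KO1 3 h replicate 2 (0.52), KO1 9 h replicate 2 (0.94) or KO2 3 h replicate 1 (0.86) for Tgtp1, nor for Cdc42bpg in 6 of the 8 fits that left out a library of KO1 or KO2 (-1.12 to -1.52). The value for Fcgr2b depends on how counts of 0 and 1 in KO2 at 3 h are treated. Lars2 moved with the 18S-like locus in the KO1 libraries of 3 h, and the part of that in its value was not tested.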

How the results depend on the processing

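With DESeq2's factors (RLE), gene totals or spike-in totals in place of TMM, with no filter, with DESeq2, with the KO1 libraries or the 4 libraries of 3 h and 9 h alone, and without each library, the count of genes called between 9 h and 3 h stayed within 1.5 times of 10534. Spike-in totals raised the count between 9 h and 6 h to 11249. The count against KO2 fell to 319 with DESeq2 and lay between 304 and 395 without a library of KO1 or KO2; a group left with 1 library was assumed to vary like the others. It was 304 without KO1 3 h replicate 1, 315 without KO1 9 h replicate 1 and 314 without KO1 9 h replicate 2. Medians of 7 of the 35 lists changed sign. Cytosolic ribosomal proteins gave 0.082 with gene totals and 0.101 with spike-in totals, IL-3 and STAT5 genes 0.010 and 0.029, and SR factors 0.022 and 0.041. The BCL2 family gave 0.179 and 0.198, with 0.032 under RLE factors and DESeq2. Genes of G1/S gave 0.153 and 0.172, with 0.007 under RLE factors and DESeq2 and between -0.107 and 0.0 without a KO1 library. Glycolysis gave 0.172 and 0.192, with 0.026 under RLE factors and DESeq2, and AU-rich element binding proteins 0.196 and 0.215, with 0.049. H1f0 gave 0.108 and 0.127, Srgn 0.040 and 0.059, Fcer1g 0.095 and 0.114 and Plac8 0.174 and 0.194. Of 180 results for named genes 157 kept their side of the threshold under every setting that gave an adjusted p, and the called ones among them kept their direction. A change of sign in a result that was called in neither fit was not counted.

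Replicate numbers were not taken as pairs, since no label ties libraries of the same number, and the deviations of the 9 h and 3 h libraries correlated at -0.04 in KO1, 0.11 in KO2 and 0.01 in WT. With the number as a replicate block 10632 genes were called in the KO1 libraries, against 10695 without it, and the block gave 503 against KO2 and 3430 against WT. Genes with few counts at 3 h are limited by counting error.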
